A study of Mus musculus with 6 samples.

Results

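The regions described here are intronic sites in lung endothelial cells (EC) that were highly methylated in infant mice and only partly methylated in young adults. Their methylome had been read by whole genome bisulfite sequencing of tagmented DNA (T-WGBS), in which a transposase inserts the adaptors and bisulfite converts unmethylated cytosines, on EC sorted from lungs of C57BL/6N mice, with 3 samples from infants (8 to 10 days old) and 3 samples from young adults (8 to 12 weeks old). All 6 samples shared strain, tissue and sorting gate, which kept CD31- and CD34-positive cells and removed blood, erythroid and lymphatic cells by PTPRC, LY76, LYVE1 and PDPN. The labels name no transgene or treatment. The study compared both ages to find out how EC change as vessels stop growing and become quiescent. The authors' list of differentially methylated regions (DMRs) gives 1 mean per group for each DMR, as the fraction of methylated calls, given here as percent. Values per sample were not analysed here, so the spread between replicates and the depth behind a single region are unknown, and no test between the ages was possible. The cell type could not be checked against marker expression, since the list holds no expression levels.

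A DMR was taken when it lay on chromosomes 1 to 19, its infant mean was at least 70% and above the young adult mean, its young adult mean was at least 20%, and its midpoint fell inside a gene, outside every exon and over 1 kb from every transcription start site (TSS). This gave 2095 of the 18333 listed DMRs (11.4%), and 20.1% of the 10415 DMRs that the same placement found in introns. They are called high-infant loss regions below. Loss was common in the list as such. It was the direction of 45.9% of all DMRs and of 59.7% of the intronic ones, and 32.8% of the loss DMRs on these chromosomes met both methylation thresholds. Because the group means chose the regions, their methylation levels and differences describe the selection and are not evidence for it. Other kinds of intronic DMR were set beside them. These were 1822 lower-infant loss regions (infant mean under 70%, young adult mean at least 20%), 2304 low-adult loss regions (young adult mean under 20%) and 4194 intronic gain regions, which were more methylated in young adults.

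In mammals, methyl groups on the cytosines of CpG sites are set by DNA methyltransferases, copied at each cell division and removed by TET oxidation or by failure to copy them. Most of the genome is methylated, whereas active promoters and enhancers are not, and many enhancers lie in introns, often the first one, of the genes they control. Intermediate methylation in a cell population means that some molecules are methylated and others are not, so that a region with a group mean near the middle of the range may hold a mixture of cells or alleles.

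Sequences of 8 regions are printed, which were picked for CpG number or size of loss and are not typical of all regions. Of the 5 genes with the most regions, the region with the most CpGs among those of at most 300 bp was taken. In *Kitl* and in *Aff3*, another region of at most 300 bp held as many CpGs. *Arhgef3* held the same number of regions as *Sema6a*, which is not shown. The regions of at most 300 bp with the largest losses were added. All are given 5′ to 3′ on the plus strand of mm10, from the C of the first CpG to the G of the last, with CpGs in capitals. The *Cyth3* region lies in intron 1 at chr5:143681698-143681928 and holds 9 CpGs, the *Kitl* region in intron 1 at chr10:100039367-100039498 with 6 CpGs, and the *Prickle2* region in intron 2 at chr6:92688766-92689058 with 5 CpGs. The *Aff3* region lies in intron 1 at chr1:38582248-38582368 and holds 6 CpGs, and the *Arhgef3* region in intron 4 at chr14:27328546-27328844 with 7 CpGs. The regions with the largest losses lie in intron 1 of *St3gal2* at chr8:110941057-110941179, in intron 1 of *Itm2b* at chr14:73369003-73369202 and in intron 4 of *Plekha1* at chr7:130885567-130885572.
Cyth3: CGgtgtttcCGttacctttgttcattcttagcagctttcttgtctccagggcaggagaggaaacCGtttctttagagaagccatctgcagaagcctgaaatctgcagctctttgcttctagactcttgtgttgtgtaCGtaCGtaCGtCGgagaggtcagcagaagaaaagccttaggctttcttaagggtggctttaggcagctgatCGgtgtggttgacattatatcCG
Kitl: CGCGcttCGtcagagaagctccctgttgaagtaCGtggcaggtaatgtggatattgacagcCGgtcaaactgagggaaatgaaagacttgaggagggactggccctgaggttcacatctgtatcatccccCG
Prickle2: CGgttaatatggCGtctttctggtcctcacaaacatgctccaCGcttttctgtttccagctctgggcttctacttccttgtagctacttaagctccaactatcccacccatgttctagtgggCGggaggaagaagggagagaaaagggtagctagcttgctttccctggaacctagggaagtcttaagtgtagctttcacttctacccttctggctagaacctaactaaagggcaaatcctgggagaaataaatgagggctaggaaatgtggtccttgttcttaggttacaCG
Aff3: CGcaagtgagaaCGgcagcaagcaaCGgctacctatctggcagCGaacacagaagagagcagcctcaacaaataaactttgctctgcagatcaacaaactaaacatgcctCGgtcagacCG
Arhgef3: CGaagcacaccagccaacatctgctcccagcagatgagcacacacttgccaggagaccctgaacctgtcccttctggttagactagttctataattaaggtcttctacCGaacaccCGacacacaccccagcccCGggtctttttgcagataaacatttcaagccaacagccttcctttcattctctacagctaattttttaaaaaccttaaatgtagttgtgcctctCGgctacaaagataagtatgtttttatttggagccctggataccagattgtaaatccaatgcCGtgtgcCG
St3gal2: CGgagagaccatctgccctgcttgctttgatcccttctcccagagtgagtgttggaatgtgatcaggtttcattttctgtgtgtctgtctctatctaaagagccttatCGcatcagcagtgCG
Itm2b: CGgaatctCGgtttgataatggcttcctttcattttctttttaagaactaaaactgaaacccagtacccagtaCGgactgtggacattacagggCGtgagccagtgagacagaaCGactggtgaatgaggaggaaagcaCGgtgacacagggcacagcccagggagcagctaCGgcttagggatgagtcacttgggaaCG
Plekha1: CGCGCG

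Apart from the *Plekha1* region, the CpGs in these sequences are unevenly spaced, with a few close groups and long stretches free of CpG between them. Methylation was 83.0% in infants and 31.7% in young adults in the *Cyth3* region, 83.2% and 39.9% in the *Kitl* region, and 78.7% and 41.9% in the *Prickle2* region. It was 74.7% and 41.3% in the *Aff3* region and 79.2% and 45% in the *Arhgef3* region. The *Plekha1* region is the shortest possible kind, 3 CpGs in 6 bases, all of them soft-masked as repeat, and its group means were 100% and 38.9%.

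Across the 2095 regions, the infant mean had a median of 79.4% (quartiles 74.6 and 84.4%) and the young adult mean a median of 43.9% (quartiles 36.7 and 51.8%). The difference, taken as young adult minus infant, had a median of -34.9 percentage points (95% order-statistic interval over regions -35.4 to -34.5). The young adult mean was a median 55.7% of the infant mean, a value that the thresholds help to set. The young adult means spread from 20.1 to 88.0%, and 34.6% of the regions lay between 40 and 50%. A young adult mean between 70 and 80% was found in 39 regions and one of at least 80% in 7. These low counts follow in part from the selection, since the authors required a minimum difference between the group means. With this minimum, regions with an infant mean between 70 and 80% could not reach 70% in young adults. Only regions with an infant mean of 90% or more could reach 80%. Infant means of 90% or more were found in 144 regions, whose median difference was -30.6 percentage points, against -35.8 in the 1097 regions between 70 and 80%. Intervals given here and below cover the number of regions and not the error of a group mean.

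**Figure D1:**
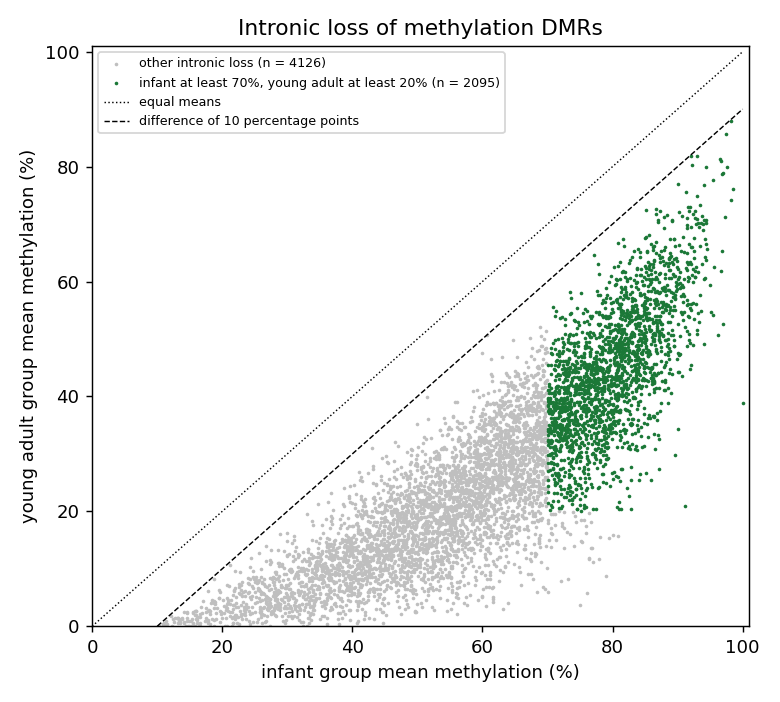
Infant group mean (x axis, %) against young adult group mean (y axis, %) of each intronic loss DMR. The 2095 high-infant loss regions (green) lie right of 70% and above 20%, mostly well under the dashed line of a 10 percentage point difference, and the other intronic loss DMRs (grey) continue the same cloud below both thresholds.

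The thresholds cut through a continuous cloud. Just inside the infant threshold lay regions in *Rnf145*, *Fuca1* and *Nbeal2*, and just outside it regions in *Myo10*, *St3gal2* and *Dlc1*, and all 6 infant means round to 70%. At the young adult threshold, regions in *Myl12b* (20.1%), *Tmem243* (20.3%) and *Hilpda* (20.3%) lay just inside. Regions in *Pitpnc1* (20%), *Sh3d19* (19.9%) and *Slco2a1* (19.9%) lay just outside, and their young adult means differed from those inside by less than 1 percentage point.

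The largest loss was that of the *St3gal2* region shown above, which held 3 CpGs and had a mean of 91.1% in infants and 20.9% in young adults. *St3gal2* encodes a sialyltransferase of the Golgi. The *Itm2b* region, in a gene for an integral membrane protein, went from 82.8 to 20.4% over 8 CpGs, and *Plekha1* encodes an adaptor that binds phosphoinositides. A region in *Stim2*, a calcium sensor of the endoplasmic reticulum, had means of 81.3 and 20.5%. A region in *Nudt3*, a phosphatase of inositol pyrophosphates, had means of 81.0 and 20.4%. All of these except the *Plekha1* region ended within 1 percentage point of the young adult threshold of 20%, so the threshold bounded the losses that could be included.

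Most regions were short. The median width was 131 bp (range 6 to 1777 bp), 51.9% of the regions held exactly 3 CpGs, which is the smallest number the authors listed, and 26.1% held at least 5. Gain regions were shorter in CpGs, with 78.1% at exactly 3, whereas lower-infant and low-adult loss regions resembled the high-infant ones with 53.3% and 51.5%. Regions with more CpGs had lost more. The median difference was -33.2 percentage points in the 1087 regions with 3 CpGs, -35.1 in the 462 with 4, -37.1 in the 473 with 5 to 9, and -42.8 in the 73 with 10 or more. The median infant mean varied from 78.3 to 79.9% over these 4 classes, and the young adult median went from 45.7% at 3 CpGs to 33.9% at 10 or more. The infant threshold narrows the range open to the infant medians, so their closeness follows in part from the selection. Each CpG of a region also had to pass the authors' test between the ages. CpG number and loss are therefore not independent, and the part of this in the trend was not tested.

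The regions with the most CpGs were found in *Mbnl2*, a splicing regulator (22 CpGs, 96.2% in infants and 50.7% in young adults), and *Clic5*, an intracellular chloride channel protein linked to the cytoskeleton (21 CpGs, 81.3 and 27.4%). They were followed by *Cyth3* (21 CpGs, 84.9 and 31.4%), *Prickle2* (20 CpGs, 83.6 and 41.3%) and *Tmem204*, a membrane protein (20 CpGs, 83.6 and 43.7%). The *Mbnl2* region packed its CpGs into 331 bp and overlapped a CpG island, and the *Cyth3* region spread the same kind of number over 1777 bp, outside any island.

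Most regions lay in early introns. Intron 1, counted in the transcript with the longest body, held 45.6% of them (95% Wilson interval 43.5 to 47.7%), and introns 1 to 3 together held 75.2%. Lower-infant loss regions (43.0%, 40.8 to 45.3%) and low-adult loss regions (47.0%, 45 to 49.1%) had similar shares in intron 1 with overlapping intervals, and gain regions had 33.2% (31.8 to 34.7%). The median distance to the TSS of the gene was 26.1 kb (23.7 to 28.1 kb), against 27.6 kb in lower-infant loss, 24 kb in low-adult loss and 47.2 kb (44.5 to 49.9 kb) in gain regions. Within 10 kb of the TSS lay 26.4% of the high-infant regions (24.6 to 28.4%), 24.4% of the lower-infant ones (22.5 to 26.4%) and 31.6% of the low-adult ones (29.7 to 33.5%). The intervals of the high-infant regions overlapped those of the lower-infant but not of the low-adult ones.

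With CpG islands defined by sequence (at least 200 bp, GC of at least 50%, observed to expected CpG over 0.6), 10.6% of the high-infant regions overlapped an island, and with a minimum of 500 bp, GC of 55% and a ratio of 0.65 the share was 0.239% (0.102 to 0.557%). Gain regions had 12.3% by the wider definition and 82 of 4194 (95% Wilson interval 1.58 to 2.42%) by the stricter one, while lower-infant and low-adult loss regions had 0.274 and 0.347% by the stricter one, within the interval of the high-infant regions. The median GC content of the 200 bp around the midpoint was 48.0%, against 47.5, 48.5 and 48.0% in lower-infant, low-adult and gain regions. Of the high-infant regions, 9.31% (8.14 to 10.6%) were soft-masked as repeat over most of their length, against 6.09% (5.08 to 7.29%) in lower-infant, 4.77% (3.98 to 5.72%) in low-adult loss regions and 6.84% (6.12 to 7.65%) in gain regions. Reads in repeats are harder to place, and the part of this in the group means was not tested.

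The regions fell into 894 genes, of which 547 held 1 region, 281 held 2 to 5 and 66 held more than 5. These 66 genes held 741 regions (35.4%), and the 10 leading genes alone held 249 (11.9%). For comparison, genes with more than 5 regions of the same kind held 21.9% of lower-infant, 28.0% of low-adult and 18.9% of gain regions. Of the 894 genes, 469 (52.5%) also held a low-adult loss region and 230 (25.7%) an intronic gain region. Of the 24963 annotated genes on chromosomes 1 to 19, 1097 held a low-adult loss region and 2324 an intronic gain region. Both kinds were thus more frequent in the 894 genes, and the part of gene length in this was not tested. Among the 66 genes with more than 5 regions, 59 also held a low-adult loss region. No gain DMR was found in 58 of these 66 genes and in 648 of all 894. Most annotated genes held no intronic gain region either, so its absence does not set the 66 genes apart. Regions in these 66 genes had a median difference of -36.1 percentage points and lay in intron 1 in 49.0% of cases, against -33.4 percentage points and 39.5% for the 547 regions that were alone in their gene.

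**Figure D2:**
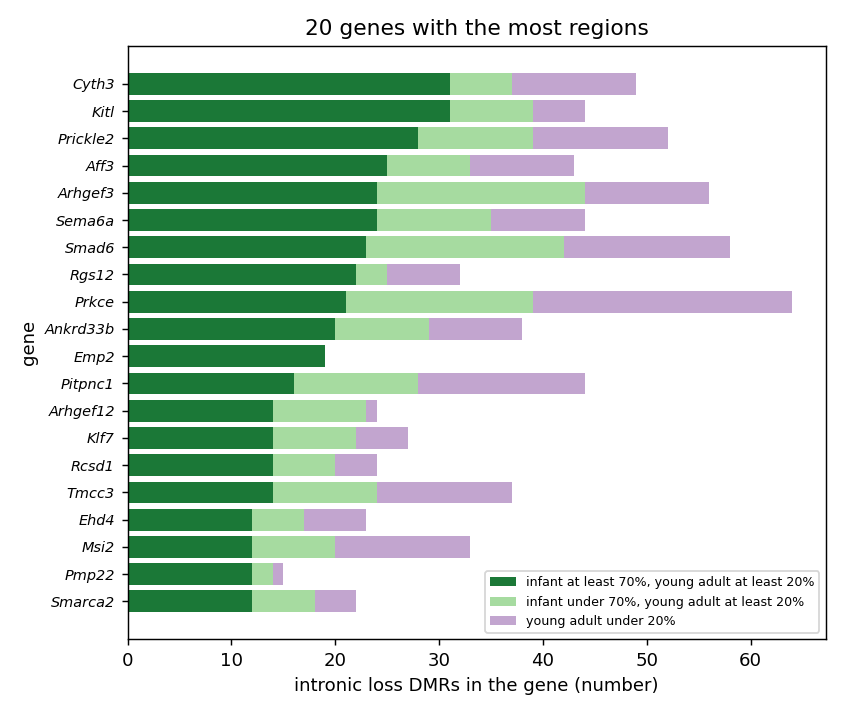
Number of intronic loss DMRs (x axis) in the 20 genes with the most high-infant loss regions (y axis), split by kind. Dark green bars are high-infant loss regions, light green lower-infant ones and purple low-adult ones, and *Cyth3* and *Kitl* lead with 31 high-infant regions each.

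*Cyth3* encodes cytohesin 3, an exchange factor for Arf GTPases that binds phosphoinositides at the plasma membrane. It held 50 DMRs, all of them losses, of which 31 were high-infant, 6 lower-infant and 12 low-adult loss regions. The 31 regions spanned 74.3 kb from 4.94 to 78.8 kb after the TSS, and 26 lay in intron 1, and the median spacing of the 31 was 1.68 kb. Infant means ran from 71.5 to 94.1% (median 81.8%) and young adult means from 26.6 to 70% (median 35.3%), and the median difference of -43.3 percentage points lay beyond the -34.9 of all regions. The highest young adult value stood 50.8 kb from the TSS (92.8% in infants, 70% in young adults). Its neighbours in the same intron, at 50.1 kb (79.4 and 35.1%) and 53.8 kb (77.3 and 30.9%), had lower means at both ages. The contrast rests on 1 region of 4 CpGs, picked as the highest, with unknown spread between replicates.

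*Kitl* encodes the ligand of the receptor KIT, a growth factor that EC present to stem and progenitor cells. Its 31 regions, of 44 DMRs without a single gain, covered 54.7 kb in introns 1 to 3, with 17 in intron 1. Young adult means were higher than in *Cyth3*, with a median of 45.4% and a range of 26.3 to 64.1%, and the median difference was -35.6 percentage points. The lowest stood 26.1 kb from the TSS (71.3% in infants, 26.3% in young adults) and the highest at 56.6 kb (92.5 and 64.1%). The 17 regions of intron 1 had young adult means from 26.3 to 48.5%, and the 14 regions of introns 2 and 3 had means from 33.9 to 64.1%, so both ranges overlapped but the highest 7 values all lay beyond intron 1.

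**Figure D3:**
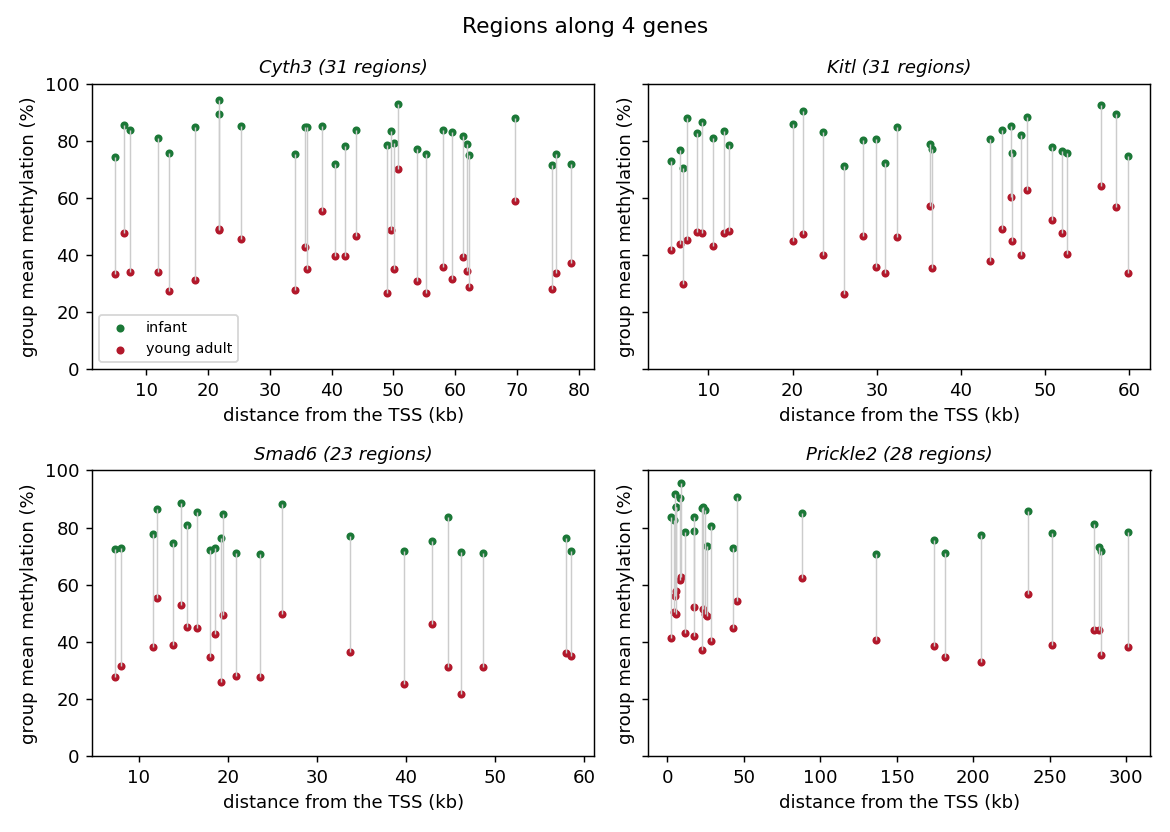
Group mean methylation (y axis, %) of each high-infant loss region along *Cyth3*, *Kitl*, *Smad6* and *Prickle2*, by distance from the TSS (x axis, kb). Green points are infant means, red points young adult means and grey lines join both means of a region. Infant points lie above 70% because the infant threshold chose the regions. Red points, bounded below by the young adult threshold, scatter between 21.9% (in *Smad6*) and 70% (in *Cyth3*).

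*Smad6* encodes an inhibitory Smad, which blocks signalling of bone morphogenetic protein (BMP) receptors. The gene held 61 DMRs, all losses, and 23 of them were high-infant regions in 3 introns, 18 in intron 3. Beside them lay 19 lower-infant and 16 low-adult loss regions, so the gene, of 69.0 kb, held loss of all 3 kinds. The high-infant regions spanned 51.7 kb of it. The 23 infant means ran from 70.8 to 88.5% with a median of 75.2%, the lowest median of the 10 leading genes, and the young adult means from 21.9 to 55.4% with a median of 36.1%. A run of 11 regions with gaps of at most 2 kb occupied 9.93 kb at chr9:64000902-64010834 and held 69 CpGs. Within it the young adult mean went from 25.8 to 55.4%. The region at 44.7 kb from the TSS had the largest difference of the gene (83.6% in infants, 31.3% in young adults).

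*Prickle2*, a cytoplasmic component of planar cell polarity, held 28 regions of 54 DMRs, again all losses. They extended over 299.2 kb from 2.67 to 300.9 kb after the TSS, and 23 lay in intron 2. Young adult means ranged from 33.1 to 62.6% (median 44.5%). The 7 regions within 10 kb of the TSS had infant means from 82.7 to 95.5%, among them the highest of the gene at 9.25 kb (95.5% in infants, 62.6% in young adults). The 5 regions from 136.7 to 235.7 kb had infant means from 70.8 to 85.7%. The lowest young adult mean stood 204.9 kb from the TSS (77.5 and 33.1%).

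*Sema6a*, a transmembrane semaphorin that binds A-type plexins, held 24 regions of 45 DMRs without a gain. Intron 1 held 21 of them, from 5.14 to 62.1 kb after the TSS, and their young adult means spanned most of the range seen, from 26.7% at 6.51 kb to 76.7% at 30.2 kb. At 30.2 kb infants had 94.1%. The standard deviation of the 24 young adult means was 13.0 percentage points, the largest of the 10 leading genes. *Arhgef3*, a guanine nucleotide exchange factor, also held 24 regions, of 60 DMRs with 1 gain. They began 36.4 kb from the TSS, 13 lay in intron 4, and the median difference of -30 percentage points was the smallest among these 10 genes. The region nearest to the TSS had the lowest young adult mean of the gene (79.0% in infants, 24.9% in young adults).

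*Aff3*, a nuclear protein of the family linked to transcription elongation, held 25 regions of 44 DMRs with 1 gain. Its first region stood 1.41 kb from the TSS (77.4 and 40.2%), 20 regions lay in intron 1, and the young adult median was 50.3%. *Rgs12*, which speeds GTP hydrolysis by G protein alpha subunits, held 22 regions of 35 DMRs, without gain, and had the highest young adult median of these genes with 50.9%. Its range of 25.6 to 64.3% still overlapped that of each of the other 9 leading genes. *Prkce*, the epsilon isoform of protein kinase C, held 21 regions of 64 DMRs, without gain. They were spread over 429.6 kb at a median spacing of 16.6 kb, the widest of the leading genes, and low-adult loss regions (25) outnumbered them. *Ankrd33b*, an ankyrin repeat protein, held 20 regions of 38 DMRs, without gain, 18 of them in intron 1. Its median difference of -41.7 percentage points was exceeded only by that of *Cyth3* among the 10 genes.

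Regions of the same gene reached different levels in young adults. In the 66 genes with more than 5 regions, the young adult mean had a standard deviation of 10.4 percentage points within genes, while the gene means, each an average over more than 5 regions, had one of 4.43. The gene medians ran from 31.1 to 58.5%. The lowest was that of *Tmcc2*, whose 9 regions had a median difference of -49.3 percentage points. The gene was named after its values were seen, as was *Emp2* in the next paragraph.

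Regions stood close to each other and to other losses. The nearest listed DMR had also lost methylation for 88.6% of the regions (87.2 to 89.9%), against 83.0% (81.2 to 84.6%) of lower-infant and 83.8% (82.3 to 85.3%) of low-adult loss regions, and 19.6% (18.4 to 20.9%) of gain regions. The median gap to it was 1494 bp (1291 to 1693 bp), shorter than the 3323 bp (2970 to 3749 bp) and 2288.5 bp (2075 to 2545 bp) of the other loss kinds and the 17990.5 bp of gain regions. This gap depends on how regions are cut. It was 2341 bp when high-infant regions of a gene at most 500 bp apart were merged, above the 2288.5 bp of the unmerged low-adult regions, and 725 bp for those with at least 5 CpGs. For 37.1% of the regions the nearest DMR was another high-infant region, for 20.8% a lower-infant, for 24.4% a low-adult and for 7.11% an intronic gain region. Joined at gaps of at most 2 kb, 726 regions (34.7%) formed 271 runs of 2 or more, and 18 runs held 5 or more. *Emp2*, a membrane protein of the tetraspan family of *Pmp22*, equalled *Smad6* with a run of 11 regions (12.1 kb, young adult means 39.0 to 60%). All 19 DMRs of *Emp2* were high-infant regions. A gap can only be short where CpGs were covered, and coverage between regions was not analysed here.

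**Figure D4:**
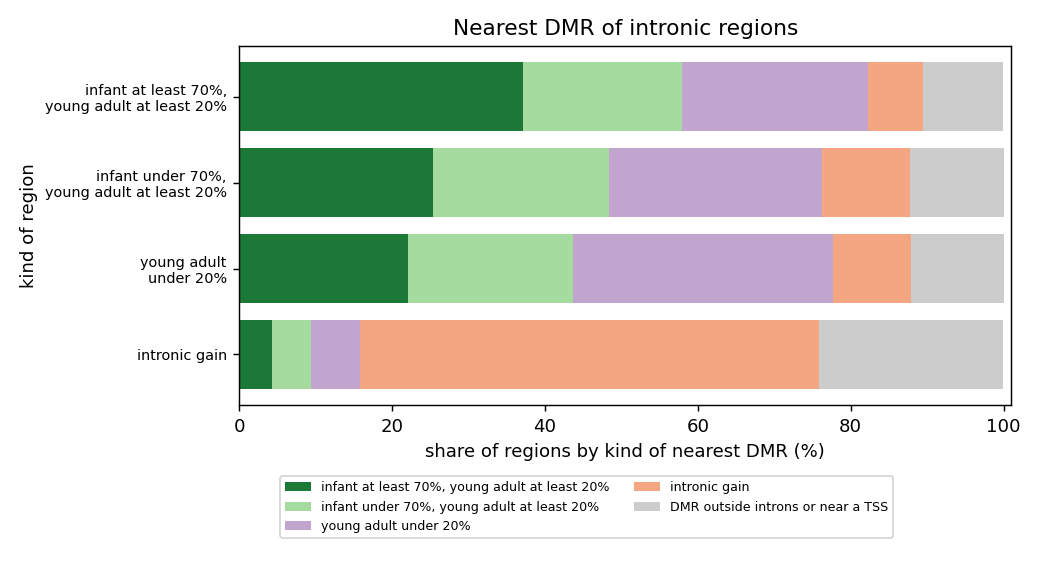
Share of intronic DMRs (x axis, %) by the kind of their nearest listed DMR (colours), for the 4 kinds of intronic DMR (y axis). The nearest DMR of a high-infant loss region was another such region in 37.1% of cases and an intronic gain in 7.11%, whereas 60% of gain regions had a gain as their nearest.

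The young adult level varied with the distance to the nearest loss DMR that fell under 20% in young adults. Regions within 0.5 kb of such a DMR had a median young adult mean of 40.6% (n = 93, quartiles 34.3 and 46.3%), and those at 0.5 to 1 kb had 39.5% (n = 161). The median was 41.8% at 1 to 2 kb, 42.7% at 2 to 5 kb, 44.3% at 5 to 20 kb and 44.6% at 20 to 100 kb. Beyond 100 kb it was 46.8% (n = 461, quartiles 39.6 and 54.4%). The quartiles of all these classes overlapped. The infant median stayed between 78.4 and 80.3% without an order, a range that the infant threshold helps to narrow. The difference went from -39.0 percentage points in the nearest class to -32.8 in the farthest. Regions in the farthest class held 3.90 CpGs on average and those at 0.5 to 1 kb held 5.08, and the part of CpG number in this gradient was not tested. All values come from the same 6 samples. A low-adult DMR stood within 10 kb of 49.1% of the high-infant regions (46.9 to 51.2%), of 43.0% of the lower-infant ones (40.7 to 45.3%) and of 3.96% of the gain regions.

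**Figure D5:**
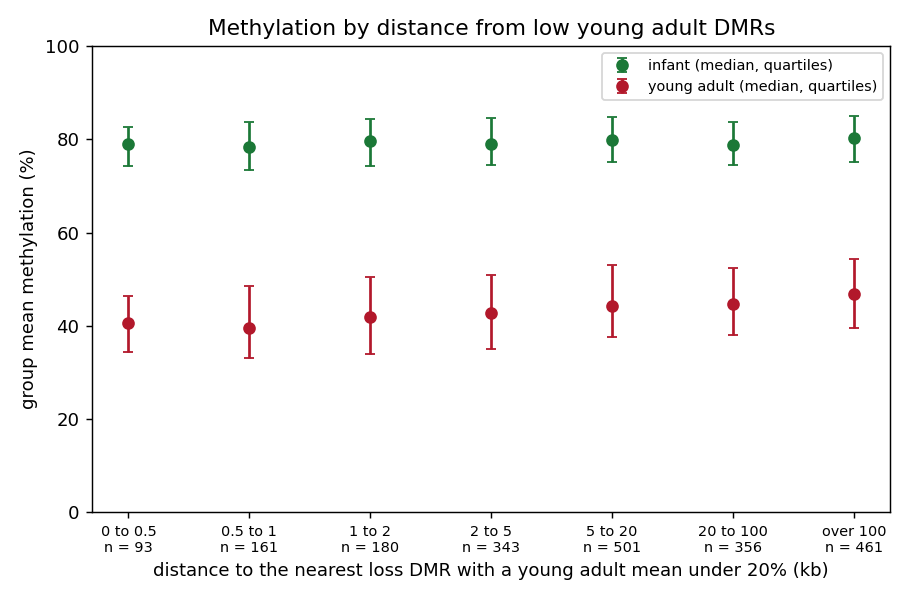
Median group mean methylation (y axis, %) of high-infant loss regions by distance to the nearest loss DMR with a young adult mean under 20% (x axis, kb), with bars from the lower to the upper quartile over regions. The young adult medians (red) lie between 39.5 and 46.8% and are highest beyond 100 kb. The infant medians (green) lie between 78.4 and 80.3%, a range that the infant threshold helps to narrow.

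By role, the regions were described in gene lists drawn up with earlier results of these data known, so that the counts are descriptions of the lists only. As a background, 3.58% of the 24963 annotated genes on chromosomes 1 to 19, and 4.32% of the 20021 protein-coding ones, held at least 1 region. Long genes and genes with many CpGs can hold more regions, and the counts are not corrected for this. Each of the role lists below also held intronic gain regions, with the counts given for some of them.

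TGFβ and BMP ligands, receptors and Smads make up a pathway that controls EC proliferation and quiescence. Of 12 ligand genes, 0 held a high-infant region, and the ligand genes together held 1 low-adult loss and 3 gain regions. Of 12 receptor genes, 3 held 16 regions. *Bmpr2*, the type II BMP receptor in which mutations cause heritable pulmonary arterial hypertension, held 10, 6 of them in intron 1. Its young adult means ran from 29.2 to 70.5% and its infant means from 70.1 to 90%. *Acvr1b*, an activin type I receptor, held 5 in intron 1 (young adult means 29.4 to 58.3%), and *Tgfbr2*, the type II TGFβ receptor, held 1 (76.0 and 40.6%). Of 17 genes for Smads and their regulators, 7 held 41 regions, with a median difference of -38.3 percentage points. *Smad6* held most of these, and the 17 genes also held 19 intronic gain regions. *Smurf2*, a ubiquitin ligase that targets Smads and receptors, held 8, of which 7 lay in intron 1 and 1 in intron 10 (75 and 29.6%). *Smad7*, the other inhibitory Smad, held 26 DMRs, all losses, but only 4 high-infant regions, all in intron 3, with young adult means from 23.3 to 60.8%. *Ski*, a corepressor of Smad targets, held 3 in intron 1 with young adult means of 49.3 to 60.8%.

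Semaphorins are guidance cues that act through plexins and neuropilins. Of 20 semaphorin genes, 4 held 34 regions, with *Sema6a* first. *Sema7a*, a membrane-anchored semaphorin, held 6 regions within 14.5 kb of the TSS (young adult means 34.3 to 56.3%). *Sema3c* and *Sema3f*, secreted ligands of neuropilins, held 3 and 1 regions, and the *Sema3f* region had means of 74.7 and 24.5%. On the receptor side, 4 of 9 autosomal plexin and neuropilin genes held 15 regions. *Plxna1* held 7 (median difference -43.3 percentage points), of which the region 3.92 kb from the TSS was the lowest (81.4% in infants, 27.4% in young adults). *Nrp1*, a co-receptor for both semaphorins and VEGF, held 5 (young adult means 28.3 to 63.5%). *Plxna4* held 2 high-infant regions beside 15 gain DMRs, and *Plxna2* held 1.

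Genes for VEGF, angiopoietin and FGF signalling held 7 regions in 5 of 18 genes, beside 11 intronic gain regions. *Flt1*, a VEGF receptor, held 3 (young adult means 28.7, 32.7 and 44.5%), and *Kdr*, the main signalling receptor for VEGF, held 1 (79.4 and 44.6%). *Fgfr2* (73.2 and 29.3%) and *Ptprb*, a phosphatase acting on EC receptors and junctions (94.3 and 70.7%), held 1 each. Of 16 Notch genes, 2 held 4 regions, 3 in the coactivator *Maml3* and 1 in intron 24 of the ligand *Jag2*. Only the Wnt co-receptor *Lrp5* held a region among 17 Wnt genes (87.3 and 52.9%), and 3 of 17 genes of the Hippo pathway and its YAP, TAZ and TEAD effectors did. These were *Stk4* with 2 regions and *Sav1* and *Lats1* with 1 each, all of them members of the kinase cascade. The Notch, Wnt and Hippo lists also held 14, 16 and 19 intronic gain regions.

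Kinases and lipid signalling genes held 56 regions in 8 of 20 genes. *Pitpnc1*, a phosphatidylinositol transfer protein, held 16 (young adult means 29.6 to 60.8%), *Inpp5a*, an inositol phosphate phosphatase, held 7 and *Pik3cb*, a catalytic subunit of phosphoinositide 3-kinase, held 5.

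A list of junction, adhesion and integrin genes held 67 regions in 11 of 30 genes. It also included the planar cell polarity gene *Prickle2* and its relative *Prickle1*, which supplied most of these regions. *Prickle2* held 28 and *Prickle1* held 8 (young adult means 21.3 to 59.4% in *Prickle1*). *Itga3*, an integrin subunit for laminin, held 7, of which 6 formed a run of 3.71 kb in intron 2 with young adult means from 31.9 to 54.7%. *Itga1*, a subunit for collagen, held 6. The 30 genes also held 38 intronic gain regions. Of 20 extracellular matrix genes, *Lamc1* (81.6 and 54.8%) and *Nid1* (75.8 and 36.6%) held 1 high-infant region each, and these 20 genes likewise held 38 intronic gain regions.

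Of 28 transcription factors of EC, 9 held 37 regions. *Klf7* held 14 (8 in intron 1, young adult means 26.3 to 64.2%), *Meis1* 7 and *Ets1* 4. *Epas1*, which encodes HIF-2α, held 46 DMRs without a gain but only 5 high-infant regions, and it was the gene with the most low-adult loss regions in the list (32). Its 5 regions had young adult means from 29.4 to 37.1%, all below the median of 43.9% of the 2095 regions. Among 13 autosomal forkhead genes, *Foxk1* held 4, *Foxp1* 3 beside 16 gain DMRs, and *Foxn3* 1. Of 13 autosomal genes that write, read or erase DNA methylation, *Mbd2*, a reader, held 3 (young adult means 40.9 to 65.3%). The methyltransferase *Dnmt3a* held 2 (infant means 74.1 and 81.6%, young adult means 36.0 and 67.3%). The dioxygenase *Tet3* held 1 (84.0% in infants, 41.7% in young adults).

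Markers of cell types were counted in the same way. Of 12 EC markers, 5 held 16 regions, namely *Pecam1* (5), *Cdh5* (4), *Erg* (3), *Flt1* (3) and *Kdr* (1). The 5 *Pecam1* regions had infant means from 72.4 to 79.6% and young adult means from 23.6 to 54.7%. The 4 *Cdh5* regions had young adult means of 35.8, 41.7, 49.8 and 74.9%. In all, 0 of 8 immune, 8 mesenchymal and 4 lymphatic markers held a region. Of 8 epithelial markers, *Hopx* held 2 (infant means 82.5 and 92.7%, young adult means 52.7 and 71.1%) and *Cdh1* held 1 (87.3 and 54.0%). These counts say where methylation differed and give no level of another cell type, and the part of cell composition in the group means was not tested.

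Short sequence motifs were counted in the 200 bp around each midpoint on either strand, beside the same windows of all 18333 listed DMRs. The ETS motif AGGAAG was found in 26.8% of the high-infant regions (25 to 28.8%) and 28.6% of all DMRs (27.9 to 29.3%). Its share was 29.7% (27.6 to 31.8%) in lower-infant, 30.8% (28.9 to 32.7%) in low-adult loss and 28.4% (27 to 29.8%) in gain regions. Of these intervals, only that of the low-adult loss regions did not overlap the high-infant one. The longer ETS form ACAGGAAG, which contains AGGAAG, was found in 2.24% of the high-infant regions and 2.93% of all DMRs. In low-adult loss regions the longer form reached 3.82% (3.11 to 4.68%), above the interval of 1.69 to 2.97% in the high-infant ones. The forkhead motif TGTTTAC stood in 5.54% (4.64 to 6.60%) against 4.35% of all DMRs and 3.15% (2.66 to 3.72%) of gain regions, but lower-infant (6.75%) and low-adult (5.86%) loss regions held it at least as often. The GATA motif AGATAAG stood in 4.06% (3.29 to 4.99%) against 3.35% of all DMRs, 2.41% (1.99 to 2.92%) of gain regions, and 4.83 and 4.51% of lower-infant and low-adult loss regions. The nuclear receptor motif AGGTCA was less frequent than in gain regions, with 10.6% (9.35 to 12%) against 15.4% (14.3 to 16.5%) and 13.2% of all DMRs, and its shares of 11.8 and 11% in lower-infant and low-adult loss regions lay within the interval of the high-infant ones. The NFI motif TGCCAA stood in 13.8% (12.4 to 15.3%) against 10.2% (9.28 to 11.1%) of gain regions and 12.3% of all DMRs, with 13.7% in lower-infant and 15.9% in low-adult loss regions. For AP-1 (TGANTCA, 7.06 against 6.51%), KLF (CCACACC, 5.30 against 4.70%), TEAD (GGAATG, 11.2 against 11.7%) and RUNX (TGTGGT, 15.4 against 13.8%) the share of high-infant regions stands first and that of all DMRs follows, as for SOX (CATTGT, 8.78 against 10.2%) and the E-box CAGCTG (10.7 against 12.3%). In lower-infant and low-adult loss regions, SOX stood in 10.5 and 10.3% and RUNX in 14.4 and 13.1%. The shares of both kinds for AP-1, KLF, TEAD and the E-box lay within the interval of the high-infant ones. In the printed sequences, the *Arhgef3* region holds an ETS and a GATA motif, the *Itm2b* region an ETS and an AP-1 motif, and the *Kitl*, *Aff3* and *Plekha1* regions 0 of those searched. A match is a string of letters and does not show that a factor bound there.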

How the data were processed

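The authors sequenced 3 T-WGBS libraries per sample from 30 ng DNA, trimmed adaptors with SeqPrep, aligned reads with BWA 0.6.1 to in silico converted mm10, removed duplicates with Picard and used bases of quality 20 or more, without 9 bp at tagmentation ends. DMRs were called in R 3.2.2 with bsseq, unsmoothed, from CpGs covered at least 8-fold in 2 of 3 samples of a group. A DMR had at least 3 consecutive CpGs, each with p under 0.05 by t-test, and group means that differed by at least 10%. Group means were deposited as fractions that the authors averaged over CpGs and samples. They were multiplied to percent here.

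DMR edges were checked against the GRCm38 (mm10) reference, where all 18333 began and ended at a CpG. Midpoints were placed with 45756 curated RefSeq transcripts of 26180 genes. A midpoint inside several genes (23 regions) went to the smallest. Distances to the TSS follow the same transcript as the intron number. Shares have 95% Wilson and medians order-statistic intervals. Python 3.11.15, pandas 2.3.3, scipy 1.17.1 and pysam 0.24.0 were used, and procedures were tested on simulated data. Named were the 10 genes with the most regions, up to 4 per list, and those of the 5 largest losses, the 5 highest CpG numbers and the 3 regions nearest each side of a threshold. Regions and lists were chosen with earlier results of these data known. The result of 1 list is not reported here. Mice were female per the study's methods. No sequence of chromosome 18 is shown.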

Additional observations from a re-analysis of the deposited data

How the results depend on the processing

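Of 114 recalculations of the main values, 91 stayed within 1.5 times a count or within the counting interval of a share or median, and 23 moved. With at least 5 CpGs per DMR, 546 regions in 300 genes were left, with a median of 6 CpGs, a median difference of -37.8 percentage points, a GC content of 49.0% and a gap of 725 bp. Of them 51.5% lay in intron 1, 31.9% within 10 kb of the TSS, 15.9% in an island and 21.8% in genes with more than 5 regions, and 94.5% had a loss as nearest DMR. With a difference of at least 30 percentage points, the median difference was -37.8 percentage points, the gap 1152 bp, the share with a loss as nearest DMR 90.7% and the share in genes with more than 5 regions 31.8%. That last share was 31.3% with an infant mean of at least 75%, 39.8% with one of at least 65% and 30.5% when regions at most 500 bp apart were merged, which also gave a gap of 2341 bp and a share of 87.0% with a loss as nearest DMR. Intron 1 of any transcript held 51.7%, 24.1% lay within 10 kb of the TSS when 2 kb from every TSS were required, and 0.239% lay in islands of at least 500 bp. Some of these shifts follow from the setting itself. A minimum difference enlarges the median loss, and a minimum CpG number raises the median CpG number. Merging removes short gaps, and a wider margin removes regions near a TSS. The cause of the other shifts was not tested. Motif shares in windows of 100 bp were lower, as fewer letters were searched, with 14.2% for ETS.

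The labels give no pairing between infant and young adult samples, so no paired analysis was made. Values per sample were not analysed here, so no replicate was left out in turn. Depth per region is unknown, and the losses are those of regions picked by the authors' test in these 6 samples.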
